A study of Mus musculus with 14 samples.

Results

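Late-response activity genes are switched on in neurons in a second wave after synaptic activity. The first wave consists of immediate early transcription factors such as Fos, Npas4 and the Egr proteins. The second wave encodes proteins that act at the synapse or are released from the neuron, and in the cortex several of these genes are used as readouts of recent activity. The 7 genes described here are Bdnf, Vgf, Nptx2, Scg2, Inhba, Homer1 and Pcsk1, taken by their symbols from the deposited count table. Each had a single row among 55359 Ensembl genes, and all 7 were among the 16918 genes that were tested.

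The RNA came from mouse cerebral cortex, with left and right hemispheres included, in 3 groups. There were 4 sham samples, 5 samples taken 2 d after cerebral venous sinus thrombosis (CVST), in which clots block the brain's venous outflow, and 5 samples taken 7 d after it. The labels give no strain, age, sex or genotype, and no collection time for the sham samples. They number the samples of a group without saying that each is a separate animal, so the p-values measure the spread between samples.

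The library totals over genes ran from 14.7 M to 20.8 M counts, and each of the 7 genes had between 110 (Inhba) and 7971 counts (Vgf) in every sample. On the first principal component of log2 CPM, which held 33.1% of the variance, the sham samples lay at -48.2 to -27.3. CVST 2 d sample 5 (-26.7) and CVST 7 d sample 2 (-26.9) lay beside them, while the other CVST samples lay at 1.48 to 49.1. Calls of the late-response genes, and changes in the calls of the activity and partner lists, are also given without these 2 libraries.

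The sequences before the start sites are shown for the cyclic AMP response element (CRE). These are the DNA letters bound by CREB, a transcription factor activated by neuronal calcium and cyclic AMP. Of the members 2 (Scg2 and Pcsk1) held the full CRE and 2 (Bdnf and Homer1) only a variant of it. RefSeq promoter windows (build GRCm38.p6) matched 5 of the 7 genes with 12 windows, 7 of them for Bdnf, which has several alternative first exons, and 2 for Homer1. Vgf and Nptx2 had no entry. The 250 bases before each start were searched on both strands for TGACGTCA (the full CRE), TCACGTCA (a CRE variant), TGANTCA (the AP-1 site), GCGNGGGCG (the EGR site) and CACGTG (an E-box). The stretches below are the last 120 bases before the start, 5′ to 3′ on the strand of the gene, with the CRE or its variant in capitals. They lie at chr1:79440027-79440146 on the minus strand for Scg2, chr13:75089737-75089856 for Pcsk1, chr2:109692316-109692435 for the third Bdnf window, chr13:93303637-93303756 for the first Homer1 window and chr13:16011731-16011850 for Inhba, which is shown as the member without a match.
Scg2: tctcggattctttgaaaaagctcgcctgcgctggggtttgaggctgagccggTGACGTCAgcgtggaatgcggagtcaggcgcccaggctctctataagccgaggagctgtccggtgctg
Pcsk1: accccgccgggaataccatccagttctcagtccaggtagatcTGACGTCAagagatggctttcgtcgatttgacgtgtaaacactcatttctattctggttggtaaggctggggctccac
Bdnf: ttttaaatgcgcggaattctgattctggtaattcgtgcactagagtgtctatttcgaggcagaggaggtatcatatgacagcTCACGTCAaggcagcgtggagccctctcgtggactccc
Homer1: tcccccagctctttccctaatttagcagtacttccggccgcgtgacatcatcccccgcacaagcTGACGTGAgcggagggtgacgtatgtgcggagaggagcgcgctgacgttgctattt
Inhba: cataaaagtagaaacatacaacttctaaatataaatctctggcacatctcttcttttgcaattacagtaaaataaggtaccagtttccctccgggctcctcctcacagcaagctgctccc

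The full CRE began 68 bases before the Scg2 start and 78 bases before the Pcsk1 start. It was present in 1.55% of all 32851 windows and in 1.77% of the 27025 genes with a window. The variant began 38 bases before the start in the Bdnf window and 56 bases before it in the Homer1 window, there in the opposite orientation. It was present in 0.35% of all windows and in 0.411% of the genes. No other window of the 5 genes held either. The AP-1 site was found in 1 Bdnf window, 152 bases before its start (6.75% of all windows), and the EGR site (4.70%) and the E-box (6.02%) in none. A match describes these letters and is no evidence of binding.

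Levels per transcript length were compared in the authors' FPKM values (fragments per kilobase of transcript, scaled to library size). In sham cortex Vgf (110 ± 7.78 FPKM) and Scg2 (105 ± 28.0) were highest, and their ranges overlapped. Homer1 followed at 62.8 ± 9.92, then Nptx2 at 22.4 ± 2.00. Pcsk1 (11.9 ± 1.40) and Bdnf (9.94 ± 0.637) overlapped each other, and Inhba was lowest at 1.45 ± 0.338 (SD, n = 4 for each gene). At 7 d the order of the means was the same, except that Scg2 (74.9 ± 11.3) stood level with Vgf (73.7 ± 15.4) (SD, n = 5).

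From here levels are CPM, counts scaled to a common library size with TMM factors, and differences are log2 fold changes with the standard error (SE) of an edgeR quasi-likelihood fit over all genes. A gene was called at a Benjamini-Hochberg adjusted p under 0.05. At 2 d against sham 0 of the 7 genes were called, where 3.95% of all genes were called (2.98% higher and 0.969% lower). For 7 d against sham 1 was called, Pcsk1, which was lower, where 4.44% of all genes were called (3.61% higher and 0.833% lower). For 7 d against 2 d 2 were called, Nptx2 and Vgf, again lower, where 2.80% of all genes were called (1.54% higher and 1.25% lower).

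**Figure D1:**
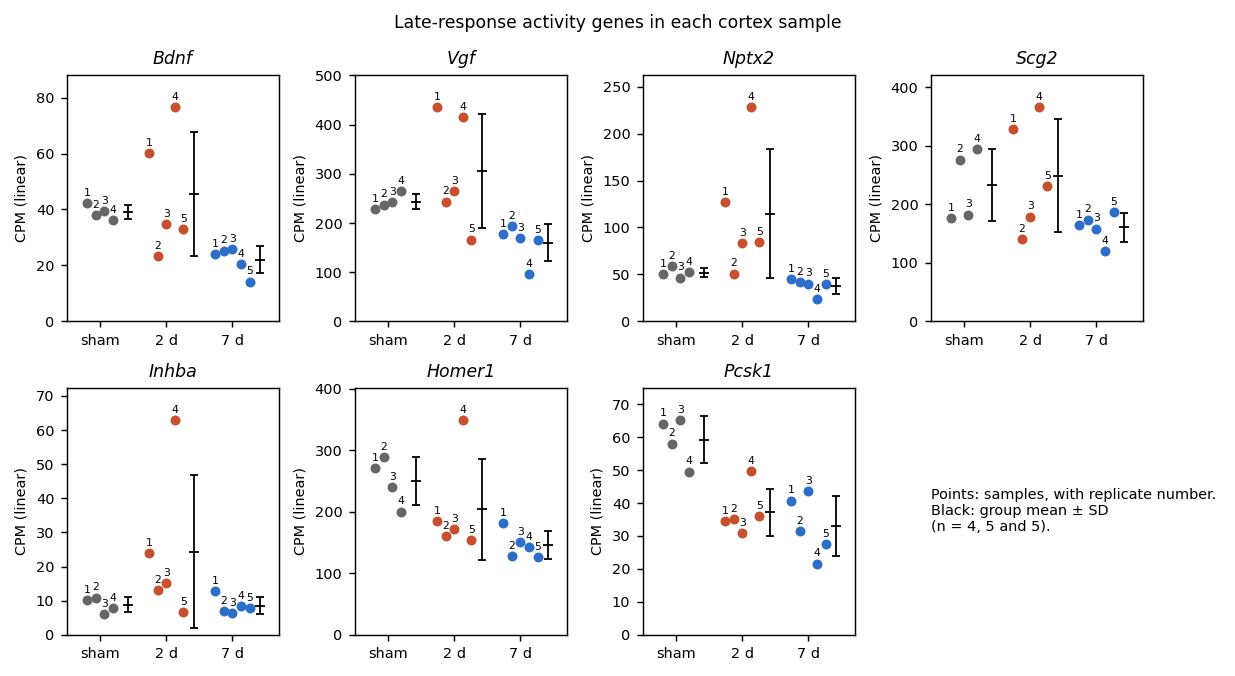
CPM of the 7 late-response genes on linear axes, with a point and replicate number for each sample and the group mean ± SD in black (sham n = 4, CVST 2 d n = 5, CVST 7 d n = 5). CVST 2 d samples 1 and 4 stand highest for Bdnf, Vgf, Nptx2, Scg2 and Inhba, and the 7 d samples lie under every sham sample for Bdnf, Vgf, Nptx2, Homer1 and Pcsk1.

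Nptx2 encodes neuronal pentraxin 2, a secreted protein that gathers AMPA-type glutamate receptors at excitatory synapses. It measured 50.2, 58.6, 46.7 and 52.3 CPM in sham samples 1 to 4. At 2 d it measured 127, 51.0, 83.1, 228 and 84.6 CPM in samples 1 to 5. At 7 d it measured 44.9, 42.3, 40.3, 23.4 and 40.0 CPM. At 2 d 4 of the 5 samples were above every sham sample, with sample 2 inside the sham range, and all 7 d samples were below every sham and every 2 d sample. Between 2 d and 7 d Nptx2 fell by 1.59 ± 0.31 on the log2 scale (adjusted p = 0.0179), from a mean of 115 ± 69.1 to 38.2 ± 8.49 CPM (SD, n = 5 and 5). At 2 d against sham the difference was 1.14 ± 0.33 (adjusted p = 0.0652), and it was called without CVST 2 d sample 2 (1.33, adjusted p = 0.0402) or sample 5 (1.24, adjusted p = 0.0326). Without CVST 2 d sample 4 it was 0.73 (adjusted p = 0.107). At 7 d against sham it was -0.45 ± 0.33 (adjusted p = 0.486). The fall between the times was called with each of the 10 CVST samples left out in turn (adjusted p = 0.0101 to 0.0483). It was not called when only the 2 CVST groups were fitted (adjusted p = 0.0625) or with limma on log2(FPKM + 1) (adjusted p = 0.0544).

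Vgf encodes a secreted precursor that is cut into several neuropeptides and is induced by neurotrophins. It measured 229, 238, 243 and 264 CPM in sham samples 1 to 4. Its 2 d values were 436, 244, 266, 415 and 167 CPM in samples 1 to 5. Its 7 d values were 178, 193, 169, 96.3 and 165 CPM. Samples 1 and 4 stood well above sham at 2 d and sample 5 below it, while every 7 d sample was below every sham sample. Vgf fell between 2 d and 7 d by 0.93 ± 0.23 (adjusted p = 0.0478). This call ended when any of the CVST samples other than CVST 2 d sample 5 was left out (adjusted p = 0.05 to 0.132, samples 1 to 4 at 2 d and 1 to 5 at 7 d), and without CVST 2 d sample 5 the adjusted p was 0.00816. It also ended with only the 2 CVST groups fitted (adjusted p = 0.12) and in limma on log2(FPKM + 0.1) (0.0755) or log2(FPKM + 1) (0.079). Against sham the differences were 0.33 ± 0.25 at 2 d (adjusted p = 0.473; 0.17 and 0.19 without samples 1 and 4) and -0.60 ± 0.25 at 7 d (adjusted p = 0.182).

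Pcsk1 encodes prohormone convertase 1/3, the protease that cuts neuropeptide precursors at pairs of basic residues inside secretory granules. It measured 64.1, 58.0, 65.2 and 49.6 CPM in sham samples 1 to 4. At 2 d it stood at 34.4, 35.1, 30.8, 49.6 and 36.0 CPM in samples 1 to 5. At 7 d it stood at 40.8, 31.5, 43.7, 21.6 and 27.6 CPM. At 2 d samples 1, 2, 3 and 5 were below every sham sample, as they were for Homer1, and sample 4 was level with the lowest sham sample. It fell by 0.84 ± 0.18 between sham and 7 d (adjusted p = 0.0224), from 59.2 ± 7.17 to 33.0 ± 9.17 CPM (SD, n = 4 and 5). At 2 d the difference was -0.67 ± 0.18 (adjusted p = 0.0552), and between 2 d and 7 d it was -0.17 ± 0.18 (adjusted p = 0.613). The 7 d call ended without sham 1 (adjusted p = 0.0561), sham 2 (0.0606), sham 3 (0.0826) or CVST 7 d sample 5 (0.0526), and in limma on log2(FPKM + 1) (0.0567). The 2 d difference was called without CVST 2 d sample 4 (-0.80, adjusted p = 0.0432) or sample 5 (-0.66, adjusted p = 0.0483).

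**Figure D2:**
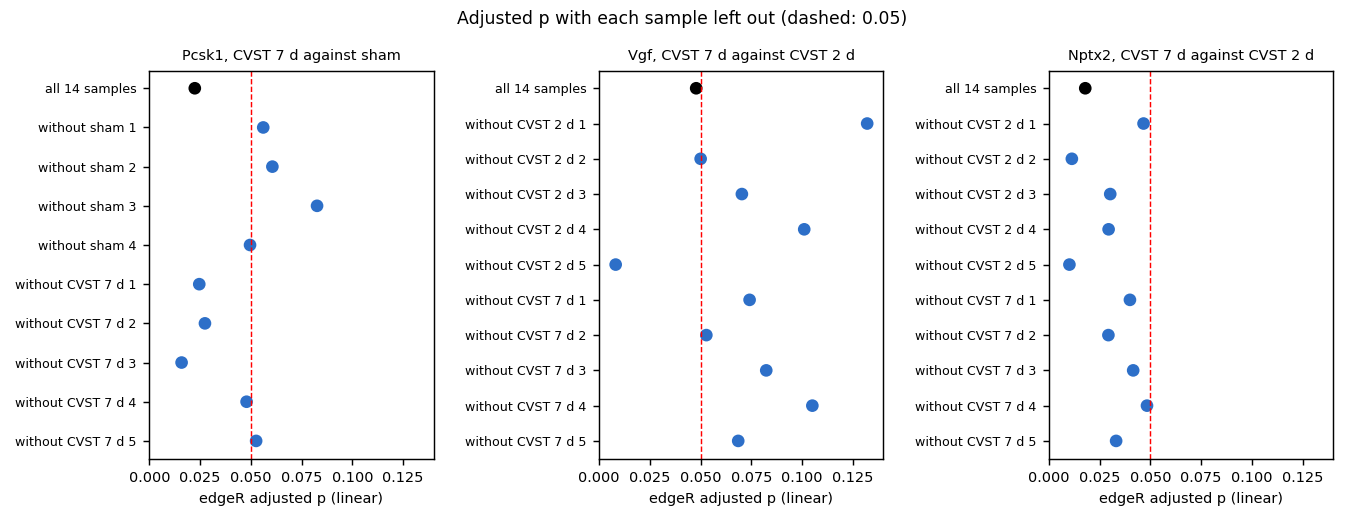
Adjusted p of edgeR's quasi-likelihood test for Pcsk1 at 7 d against sham and for Vgf and Nptx2 at 7 d against 2 d, on linear axes, with all 14 samples (black) and with each sample of the 2 groups left out in turn (blue). All 10 Nptx2 points lie left of the 0.05 line, while the Vgf and Pcsk1 points lie on either side of it.

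Bdnf encodes brain-derived neurotrophic factor, the ligand of the TrkB receptor, which supports neuronal survival and synaptic plasticity. It measured 42.2, 38.1, 39.4 and 36.2 CPM in sham samples 1 to 4. The 2 d samples had 60.3, 23.3, 34.8, 76.7 and 32.9 CPM in samples 1 to 5. The 7 d samples had 24.1, 25.3, 25.8, 20.6 and 14.3 CPM. The 2 d samples fell on either side of a narrow sham range, 2 above it and 3 below it, and the 7 d samples all lay below it. The difference between 7 d and 2 d was -1.05 ± 0.27 (adjusted p = 0.0501), and it was called without CVST 2 d sample 2 (-1.22, adjusted p = 0.0221) or sample 5 (-1.15, adjusted p = 0.0242). Against sham it was 0.23 ± 0.28 at 2 d (adjusted p = 0.68), or -0.04 without CVST 2 d sample 4, and -0.82 ± 0.28 at 7 d (adjusted p = 0.116). The count sums all Bdnf transcripts, so start sites cannot be told apart, and an antisense gene overlaps its exons in GENCODE M21 (Gm45346), which had at most 3 counts in a sample.

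Homer1 encodes a postsynaptic scaffold that links metabotropic glutamate receptors to calcium stores. The gene makes long, constitutive forms and a short form induced by activity, Homer1a, and the count covers them together. It measured 271, 290, 241 and 200.3 CPM in sham samples 1 to 4. After 2 d it measured 185, 161, 172, 349 and 154 CPM in samples 1 to 5. After 7 d it measured 182, 128, 150.4, 143 and 126 CPM. At 2 d only sample 4 was above sham and the other 4 were below it, and at 7 d every sample was below every sham sample. The difference from sham was -0.78 ± 0.21 at 7 d (adjusted p = 0.0543) and -0.29 ± 0.21 at 2 d (adjusted p = 0.455). Without CVST 2 d sample 4 the 2 d difference was -0.58 and was called (adjusted p = 0.0448), and without CVST 7 d sample 1 the 7 d difference was called (-0.86, adjusted p = 0.0493). Between the times it was -0.48 ± 0.20 (adjusted p = 0.189), and -0.20 without CVST 2 d sample 4 (adjusted p = 0.371).

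Inhba encodes the subunit of activin A, a ligand of the TGF-beta family that neurons release after strong activity. It measured 10.1, 10.9, 6.06 and 7.92 CPM in sham samples 1 to 4. Samples 1 to 5 at 2 d had 24.0, 13, 15.2, 62.9 and 6.54 CPM. Samples 1 to 5 at 7 d had 12.7, 6.97, 6.42, 8.32 and 7.87 CPM. Inhba had the widest spread of the 7 genes at 2 d, where the highest sample was 9.62 times the lowest, and at 7 d it lay in the sham range apart from sample 1. The difference was 1.48 ± 0.50 at 2 d against sham (adjusted p = 0.105) and was called without CVST 2 d sample 5 (1.72, adjusted p = 0.0206). Between 2 d and 7 d it was -1.53 ± 0.46 (adjusted p = 0.0844), called without CVST 2 d sample 5 (-1.77, adjusted p = 0.0194). At 7 d against sham it was -0.05 ± 0.49 (adjusted p = 0.97). Without CVST 2 d sample 4 the 2 d difference was 0.75 (adjusted p = 0.219) and the difference between the times -0.80 (adjusted p = 0.173).

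Scg2 encodes secretogranin II, a granin that helps form dense-core secretory granules and is the precursor of the peptide secretoneurin. It measured 177, 277, 183 and 294 CPM in sham samples 1 to 4. In the 2 d group it was 329, 141, 179, 367 and 231 CPM in samples 1 to 5. In the 7 d group it was 165, 174, 159, 120.5 and 186 CPM. Unlike Bdnf, Vgf and Nptx2 it varied within sham, where samples 2 and 4 were high, and sample 5 of the 7 d group lay inside the sham range. The differences were 0.10 ± 0.25 at 2 d against sham (adjusted p = 0.852; -0.08 without CVST 2 d sample 4), -0.53 ± 0.25 at 7 d against sham (adjusted p = 0.263) and -0.63 ± 0.24 between the times (adjusted p = 0.15).

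**Figure D3:**
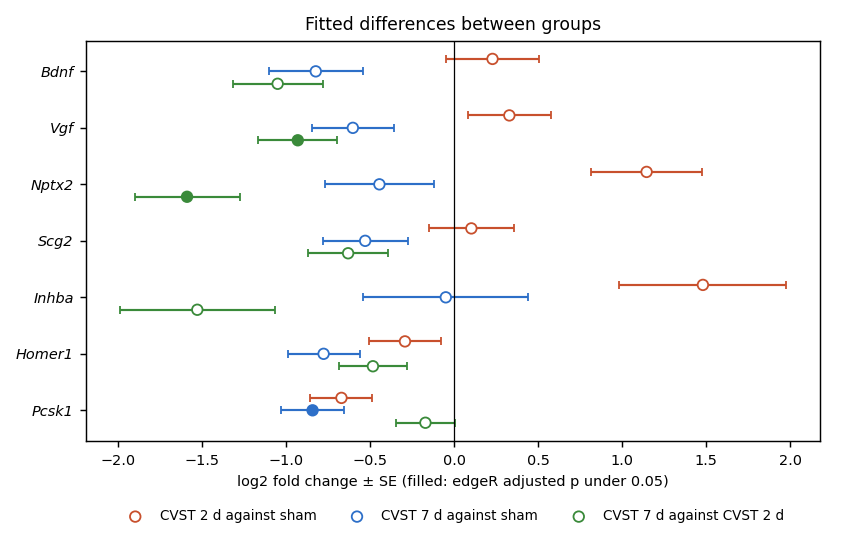
Log2 fold changes ± SE of the 7 genes in the 3 comparisons, with filled marks where the edgeR adjusted p was under 0.05. The 7 d against 2 d values (green) and the 7 d against sham values (blue) are below 0 for all 7 genes, while the 2 d against sham values (orange) run from -0.67 for Pcsk1 to 1.48 for Inhba.

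Side by side, the 7 genes had a median log2 difference of 0.23 at 2 d and -0.60 at 7 d against sham, and of -0.93 at 7 d against 2 d. Over all genes tested the medians were -0.012, -0.013 and 0.0074. The 3 comparisons share their samples in pairs and are not independent. At 7 d against sham 5 of the 7 genes (Bdnf, Vgf, Nptx2, Homer1 and Pcsk1) lay wholly below the sham range, where 3.87% of all genes tested did (5.84% wholly above). At 7 d against 2 d this held for 1, Nptx2, against 2.13% of all genes (2.28% wholly above). At 2 d against sham none of the 7 lay wholly above sham (5.66% of all genes) or wholly below it (3.06%). At an unadjusted p under 0.05 2 genes were higher (12.3% of all genes) and 1 lower (9.38%) at 2 d, and DESeq2 and limma-voom with sample weights each called 2 of the 7, Nptx2 as higher and Pcsk1 as lower, where they called 7.71% and 15.5% of all genes. At 7 d against sham 4 were lower at an unadjusted p under 0.05 (7.91% of all genes) and 0 higher (11.7%), and at 7 d against 2 d 6 were lower (10.6%) and 0 higher (10.3%). With both libraries that lay beside sham left out, a setting chosen after seeing the data, edgeR called Nptx2 (adjusted p = 0.0354) and Inhba (0.022) as higher at 2 d, where 12.8% of all genes were called, and Pcsk1 (0.0296) as lower at 7 d, where 7.88% were. Between the times it then called Bdnf, Vgf, Nptx2 and Inhba as lower (adjusted p = 0.0114 to 0.0401), where 5.44% of all genes were called. In 2-sided exact permutation tests over samples 0.00794 is the smallest p possible. Of 21 such tests those of Bdnf and Homer1 at 7 d against sham and of Nptx2 at 7 d against 2 d reached it. The permutation p was under 0.05 for 2 genes at 2 d against sham, 6 at 7 d against sham and 3 at 7 d against 2 d. These p-values were not adjusted for the 21 tests, and the share over all genes was not computed.

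The samples differed in the same direction for many of the genes. CVST 2 d samples 1 and 4 took the top 2 places among the 14 samples for 5 of the 7 genes, and were above every sham sample for 5 and 6 genes. CVST 2 d samples 2 and 5 were below every sham sample for 4 genes each. In the 7 d group sample 4 was lowest or next to lowest for 5 genes, as was sample 5. Each of the 7 d samples was below all sham samples for 5 or 6 genes. Pearson's r of log2 CPM between pairs of the genes over the 14 samples ranged from 0.061 (Inhba and Pcsk1) to 0.834 (Vgf and Nptx2), with a median of 0.659 over 21 pairs. After each group's mean was subtracted the median was 0.628. These values share libraries and depth and are given as a description.

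**Figure D4:**
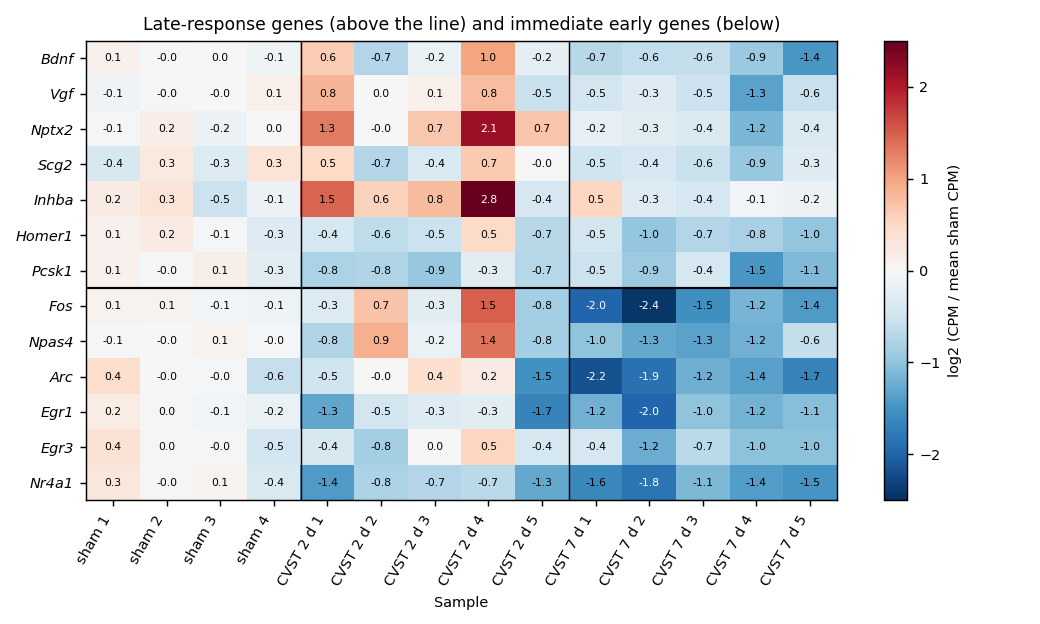
Log2 of CPM over the mean sham CPM for the 7 late-response genes (above the line) and 6 immediate early genes (below it) in each of the 14 samples. CVST 2 d sample 4 is high for 6 late-response genes, CVST 2 d sample 1 is high for 5 late-response genes and low for Npas4, Egr1 and Nr4a1, and the 7 d columns are mostly below 0. Egr1 and Nr4a1 are below every sham sample in all 2 d columns, sample 4 included.

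Immediate early genes, the preceding wave, were compared with a list of 16. At 2 d against sham 2 fell (Nr4a1, -0.95, and Nr4a3, -1.29), where 0.969% of all genes were called as lower. At 7 d against sham 9 fell (0.833% of all genes), among them Nr4a1 (-1.46) and Egr4 (-1.42). At 7 d against 2 d 6 fell (1.25% of all genes), among them Fos (-2.04) and Arc (-1.48). The waves did not run in step in every sample. In CVST 2 d sample 1 5 of the 7 late-response genes were above every sham sample and Homer1 and Pcsk1 below every one, while Npas4 was 8.87 CPM and Egr1 122 CPM, against 14.5 to 15.9 and 264 to 339 CPM in sham. In CVST 2 d sample 4 Fos (68.2 CPM, 22.3 to 25.9 in sham) and Npas4 (38.4 CPM) were high along with 6 of the 7 late-response genes. Other immediate early genes were not: Egr1, Egr2, Nr4a1 and Nr4a3 were below every sham sample in this and every other 2 d sample. The 16 genes summed to 1263 CPM in sample 4, against 921 to 1181 CPM in sham. A list of 15 further activity-regulated effectors had 0 called at 2 d, 1 lower at 7 d against sham (Gpr3, a receptor that raises cyclic AMP, -1.04) and 3 lower at 7 d against 2 d. These were Ptgs2, the inducible cyclooxygenase (-1.29 ± 0.25, adjusted p = 0.0169), Gpr3 (-1.15) and Gadd45b, a stress and DNA demethylation factor (-1.64).

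Calls among the partners of the 7 genes, given here and in the next paragraph, were few. Over all genes 3.95% were called at 2 d, 4.44% at 7 d and 2.80% between the times. In lists this short, few calls are no result about the partners. Of 14 neurotrophin signalling genes none was called in any comparison. At an unadjusted p under 0.05 (edgeR) 1 was higher and 3 lower at 2 d (12.3% and 9.38% of all genes). By the same measure 1 was higher at 7 d (11.7%) and 1 higher between the times (10.3%). The TrkB gene Ntrk2 was 585 CPM in sham, 531 at 2 d and 627 at 7 d. Of 12 granin and prohormone processing genes C3ar1, a receptor of complement and of a Vgf peptide, rose at 2 d (2.91 ± 0.67, adjusted p = 0.0311) and 7 d (3.62 ± 0.68, adjusted p = 0.0122). C3ar1 is a gene of microglia and macrophages, of whose 8 markers 0 were called at 2 d and 6 rose at 7 d. Chga, the granin chromogranin A, fell between 2 d and 7 d by 1.08 ± 0.27 (adjusted p = 0.0442), and like Vgf it was highest in CVST 2 d samples 1 (431 CPM) and 4 (319 CPM), against 122 to 154 CPM in sham. Pcsk2, the convertase that works beside Pcsk1, was 398 CPM in sham, 418 at 2 d and 427 at 7 d and was not called.

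Of 9 pentraxin partners Gria3, an AMPA receptor subunit, fell at 2 d by 0.60 (adjusted p = 0.0424) and none was called in the other comparisons. Nptx1, the constitutive relative of Nptx2, was 384 CPM in sham, 467 at 2 d and 431 at 7 d. Of 14 activin pathway genes 1 fell at 2 d, the type II receptor Acvr2b (-0.76, adjusted p = 0.0338), and none was called at 7 d or between the times. Fst, which encodes the activin antagonist follistatin, was 3.25 CPM in sham, 5.73 at 2 d and 2.62 at 7 d (7 d against 2 d -1.13 ± 0.35, adjusted p = 0.0931). Of 11 Homer partners the scaffold Dlg4 fell at 2 d (by 0.27, adjusted p = 0.0477) and 7 d (by 0.27, adjusted p = 0.0431), and Shank3 fell at 7 d (by 0.27, adjusted p = 0.0479).

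Other cell types moved with the groups. Of all genes 3.95% were called at 2 d, 4.44% at 7 d and 2.80% between the times. No call in a short list is near that share and does not show that its markers were unchanged. Of 10 excitatory neuron markers none was called in any of the comparisons (edgeR), and their summed level was 4652 to 6138 CPM in sham, 4850 to 5925 at 2 d and 3926 to 6381 at 7 d. Of 8 interneuron markers none was called either (857 to 1095, 855 to 1122 and 663 to 947 CPM). In such bulk tissue fewer cells of a type and less RNA per cell cannot be told apart. Microglia and macrophage markers rose at 7 d (6 of 8, 266 to 305 CPM in sham and 359 to 1042 at 7 d). So did 3 of 6 fibroblast markers (104 to 149 in sham, 162 to 2965 at 7 d, highest in sample 5). Of 7 monocyte-derived and border macrophage markers 3 rose at 7 d (7.15 to 8.94 in sham, 9.31 to 102 at 7 d). At 2 d none of these genes was called. The 2 d sums were 270 to 629 CPM for microglia and macrophage markers, partly within the sham range. For fibroblast markers (159 to 232 CPM) and monocyte-derived markers (17.8 to 50.8 CPM) every 2 d sample was above sham. Of 7 astrocyte markers 2 rose at 2 d (Gfap and Aldh1l1), 2 at 7 d (Gfap and Aqp4) and 3 between the times. The list did not move as 1 at 2 d, where its median log2 difference from sham was -0.14. At an unadjusted p under 0.05 (edgeR) 2 were higher there and 3 lower (12.3% and 9.38% of all genes). The summed level of the astrocyte markers was 2750 to 3600 CPM in sham, 3315 to 4177 at 2 d and 3748 to 7222 at 7 d. Every 7 d sample was above sham, and sample 4, lowest in Nptx2 and Vgf, was highest. Of 6 endothelial markers Cdh5 and Pecam1 rose at 2 d, and 1 rose and 1 fell between the times. None of these markers was at 0 in a sample. Their part in the late-response values at 2 d and 7 d was not tested.

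Without CVST 2 d sample 5 and CVST 7 d sample 2, a setting chosen after seeing the data, more genes were called. The shares of all genes called were then 12.8% at 2 d, 7.88% at 7 d and 5.44% between the times. The immediate early counts were 1 higher (Ier2) and 2 lower at 2 d, 9 lower at 7 d and 6 lower between the times. At 2 d the further effectors then had 2 called, Ptgs2 and Gadd45b, both higher, and between the times Crem was added as lower. Among the partner lists Shc1, Chga and Fst were added as higher at 2 d. Ntf3, Ptprn2, Gria2, Acvr2a, Grm5 and Homer2 were added as lower at 2 d, and the Shank3 call at 7 d ended. At 7 d Shc1 and Adam17 were added as higher, and between the times Gria3 was added as higher and Fst as lower. Of the microglia and macrophage markers 6 of 8 then rose at 2 d and 7 of 8 at 7 d, while excitatory neuron markers stayed at 0 called in each comparison and 1 interneuron marker, Sst, fell at 7 d.

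Markers of neighbouring tissue differed between samples of a group. The summed level of 7 striatal markers was 1283 and 1428 CPM in sham 2 and 4 and 223 and 193 CPM in sham 1 and 3, which is also the split seen for Scg2. It was 1167 CPM in CVST 7 d sample 5, the 7 d sample with the highest Scg2, and 203 to 241 CPM in the others. The 2 d group did not follow this order: sample 5 had the highest striatal sum there (1051 CPM) with 231 CPM of Scg2, while samples 1 and 4, with the most Scg2, had 487 and 401 CPM of striatal markers. The 6 choroid plexus markers summed to 711 and 779 CPM in CVST 2 d samples 1 and 4 and to 176 to 232 CPM in the other 2 d samples. The 6 hippocampal formation markers summed to 353 and 400 CPM in these samples and to 197 to 318 CPM in the other 2 d samples. Their sums were 172 to 268 CPM in sham and 168 to 327 CPM at 7 d. CVST 2 d samples 1 and 4 also held the 2 highest 2 d values of Bdnf, Vgf, Nptx2, Scg2 and Inhba. The 7 d group did not follow this for choroid plexus markers. There sample 4 had the highest choroid plexus sum (442 CPM, 173 to 252 CPM in the others) and the lowest Scg2 (120.5 CPM). In sham samples 1 to 4 the choroid plexus sum was 301, 589, 143 and 1287 CPM. Scg2 was 177, 277, 183 and 294 CPM in sham samples 1 to 4. Samples 2 and 4 were highest in both, while samples 1 and 3 ranked in opposite order. Vgf varied between 229 and 264 CPM and Nptx2 between 46.7 and 58.6 CPM over the sham samples. No gene of these lists was called, none was at 0, and their part in these values was not tested.

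**Figure D5:**
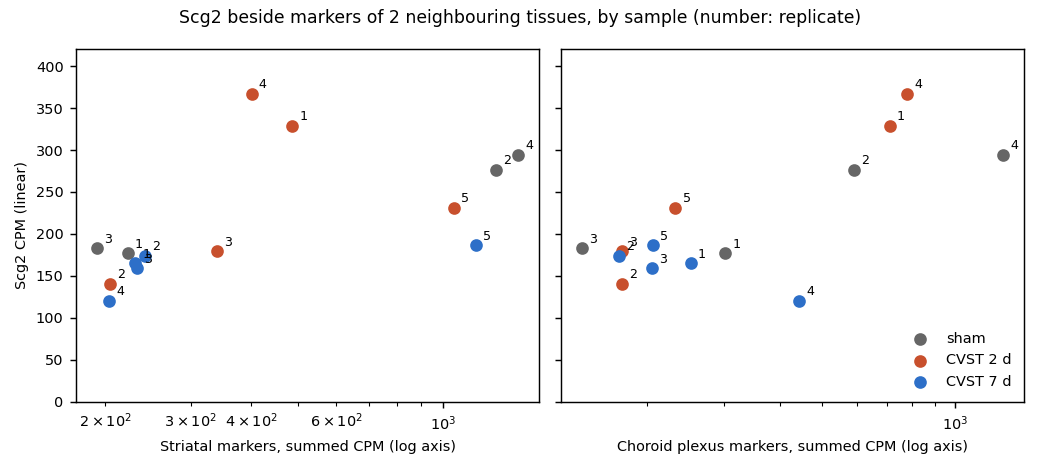
Scg2 CPM (linear axis) against the summed CPM of 7 striatal markers (left) and 6 choroid plexus markers (right), on log axes, in each of the 14 samples labelled with the replicate number. Sham 2 and 4 are high in Scg2 and in both marker sums, and CVST 2 d samples 1 and 4 are high in Scg2 and in choroid plexus markers. CVST 7 d sample 4 is the highest of its group in choroid plexus markers and the lowest in Scg2.

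The genes whose log2 CPM over the 14 samples was most like each member were taken from all other genes tested, as the highest of 16918 values and hence without a p. Efna3, an ephrin ligand, was closest to Bdnf (Pearson's r = 0.942, Spearman's rho = 0.925), ahead of Ankrd13c and Rtn4rl2. Nme1 was closest to Vgf (r = 0.947, rho = 0.96), then Insyn1 and Phlda1, and Sertad1 to Nptx2 (r = 0.935, rho = 0.763), then Tpm1 and Ipo5. Ankrd50 was closest to Scg2 (r = 0.931, rho = 0.864), then Peg10 and Rgs8. Acvr1, a type I receptor of the activin and BMP family, was closest to Inhba (r = 0.93, rho = 0.837), then Cacna1g and Rara. Egr3, an immediate early gene, was closest to Homer1 (r = 0.907, rho = 0.899), then Crk and Usp31, and Ankrd34b to Pcsk1 (r = 0.926, rho = 0.934), then Dlgap4 and Bap1.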

How the data were processed

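The authors deposited whole-number read counts per gene and FPKM values of 14 samples. The tools fastp, HISAT2 and DESeq2 1.16.1 and the build mm39 are listed per the submitters' processing notes. How reads were assigned to genes, and with which annotation, is not given in the sources used here. Per the labels, RNA was extracted with Trizol and libraries were made with an NEBNext Ultra kit. The 535 assembled loci without an Ensembl gene (0.203% to 0.278% of the counts) were left out. The rows of 5 members are named by an assembled locus joined to an Ensembl gene.

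All 14 samples were fitted in edgeR 4.0.16 (R 4.3.3) with TMM scaling and filterByExpr, and group contrasts were tested 2-sided by quasi-likelihood. The method was tested on simulated data. Alternatives used DESeq2 1.42.0 (Wald test and size factors), limma 3.58.1 (voom with quality weights, or log2 of FPKM with pseudocounts of 0.1 or 1 and FPKM of at least 0.1 in 4 samples), no filter, other sample sets and a replicate block. Log2 CPM used a prior count of 2. The biological coefficient of variation was 0.218.

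The members and gene lists were chosen with earlier results of these data known. Named besides the members were up to 4 called genes per list, defining markers, and the 3 genes most like each member. Partner genes that were not called were named, and the genes set beside sample values were chosen, after their values were seen. Promoter sequences are from RefSeq GRCm38.p6, and no coordinates of build mm39 are given.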

Additional observations from a re-analysis of the deposited data

Results flagged for a closer look

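Among 21 sets of values (7 genes in 3 groups), 3 had a sample set apart from the rest by Dixon's criterion on log2 CPM, of which chance gives about 1 in 20. They were Homer1 in CVST 2 d sample 4 (349 CPM, gap 0.776 of the range), Nptx2 in CVST 7 d sample 4 (23.4 CPM, gap 0.823) and Vgf in CVST 7 d sample 4 (96.3 CPM, gap 0.77). The effects against sham at 2 d and 7 d differed by the test between the times for Vgf (-0.93) and Nptx2 (-1.59).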

How the results depend on the processing

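Members are the 7 late-response genes, and counts of genes and members are given in the order 2 d against sham, 7 d against sham and 7 d against 2 d. With all samples they were 669, 752 and 473 genes and 0, 1 and 2 members. DESeq2 size factors kept every call of a member. Without the filter on low counts 682, 709 and 399 genes were called, and 1, 2 and 3 members (Pcsk1, then Homer1 and Pcsk1, then Bdnf, Vgf and Nptx2). DESeq2 called 1490, 1387 and 1295 genes and 2, 2 and 4 members (Bdnf, Vgf, Nptx2 and Inhba between the times), and voom with sample quality weights 2616, 866 and 1237 genes and 2, 2 and 2 members. With only the compared groups fitted 807, 566 and 81 genes were called, and 1, 3 and 0 members (Pcsk1, then Bdnf, Homer1 and Pcsk1). In limma on log2(FPKM + 0.1) the counts were 314, 336 and 133 genes and 0, 1 and 1 members (Pcsk1, then Nptx2), and on log2(FPKM + 1) 173, 122 and 111 genes and 0, 0 and 0 members. Leaving out CVST 2 d sample 5 and CVST 7 d sample 2, an alternative chosen after seeing the data, gave 2146, 1324 and 913 genes and 2, 1 and 4 members. Leaving out a single sample gave 76 to 1967, 119 to 1035 and 173 to 1309 genes and 0 to 3, 0 to 2 and 1 to 4 members. The lowest gene counts against sham were without sham 3 and the highest without CVST 2 d sample 5 or CVST 7 d sample 2.

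The replicate numbers showed no consistent pairing of the samples. Of 13 same-numbered pairs 2 had a correlation of their deviations over 0.1 (-0.438 to 0.28). The same 2 pairs, both at 7 d against sham (0.28 and 0.199), matched best with their own number. So few pairs cannot exclude a pairing. With the number as a replicate block 315, 81 and 91 genes and 0, 0 and 0 members were called (adjusted p = 0.0995 for Pcsk1, 0.129 for Vgf and 0.0785 for Nptx2), and Inhba at 7 d against sham was 0.117.

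Differences close to 0 changed sign, none of them called. Bdnf at 2 d was -0.0352 with voom and -0.0422 to 0.395 with a sample left out. Scg2 at 2 d was -0.124 with voom and -0.0791 to 0.251 with a sample left out. Pcsk1 at 7 d against 2 d was 0.0714 with voom. Inhba at 7 d against sham was 0.0249 without both samples named above and -0.233 to 0.076 with a single sample left out. The cause was not tested. Every member had at least 110 counts in each sample.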
